A study of Homo sapiens with 3 samples.

Results

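SNORD43, SNORD83A and SNORD83B are 3 box C/D small nucleolar RNAs (snoRNAs) that lie in introns of RPL3, the gene of a protein of the large ribosomal subunit. They were taken as the box C/D entries U43, U83A and U83B, 3 of 259 snoRNAs with reads and 1540 of 51039 counts. These totals cover all snoRNA classes, and 147 of the 259 are box C/D. An entry named simply U83 was left out: it ran to position 76 and matched SNORD117, a 76-nt snoRNA at chr6:31536374-31536449 within DDX39B, and held 46, 17 and 39 counts in libraries 1, 2 and 3.

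The reads come from the small RNA of HEK293, a long-established line from human embryonic kidney, grown in a standard serum-containing medium with no treatment named. Small RNA was enriched on magnetic beads from phenol/chloroform extracts and ligated to adapters with an Ion Torrent kit. There are 3 libraries, all of 1 group, and nothing says whether they came from separate cultures, so p-values here speak only of library-to-library spread and may reflect technical differences alone. All comparisons are therefore between snoRNAs within a library. The files used hold snoRNA reads, so markers of the cell line were not read.

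Box C/D snoRNAs guide the 2′-O-methylation of other RNAs, mostly rRNA. Box C near the 5′ end and box D near the 3′ end come together in a short terminal stem and bind the proteins SNU13, NOP56, NOP58 and fibrillarin, the methyltransferase. Those encoded in introns are released when the host is spliced and the intron is opened, and exonucleases then trim the ends up to the bound proteins. SNORD43 guides methylation of the small-subunit rRNA, and under its older name RNU43 it is a common reference in small RNA qPCR.

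The 3 genes share the minus strand of chromosome 22 (GRCh38, GENCODE 29) within RPL3 (chr22:39312882-39320389). In the transcript RPL3-201, which has 9 introns, SNORD43 (ENSG00000263764.1, chr22:39319050-39319113) lies in intron 1, SNORD83A (ENSG00000209482.1, chr22:39315213-39315307) in intron 5 and SNORD83B (ENSG00000209480.1, chr22:39313819-39313911) in intron 7. SNORD43 is 457 nt from the next exon, SNORD83A 366 nt and SNORD83B 89 nt. The median of this distance was 84.5 nt over the 32 other box C/D snoRNAs with reads that lie in a ribosomal protein gene (quartiles 76.5 and 120.75), and 137.5 nt over 88 box C/D snoRNAs in introns of protein-coding genes. SNORD83B was thus close to the first median, and SNORD43 and SNORD83A were beyond its upper quartile. SNORD83A lies 61 nt after the exon before it, the smallest such distance of the 3 genes.

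**Figure D1:**
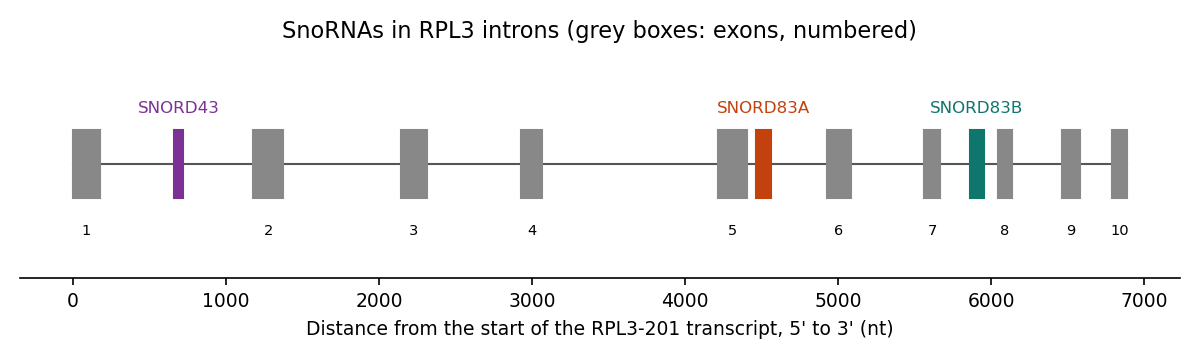
Map of the RPL3-201 transcript, drawn to scale in nt from its start (horizontal axis), with exons as numbered grey boxes and the 3 snoRNAs as coloured boxes. SNORD43 sits in intron 1, SNORD83A in intron 5 next to exon 5 and SNORD83B in intron 7, 89 nt before exon 8.

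The sequences are shown because all results below turn on where reads begin and end relative to the boxes. They are the GENCODE 29 transcripts (GRCh38, minus strand, written 5′ to 3′), with the letters of box C (TGATGA) and of box D (the last CTGA) in capitals.
SNORD43: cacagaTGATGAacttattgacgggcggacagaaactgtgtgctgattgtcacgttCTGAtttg
SNORD83A: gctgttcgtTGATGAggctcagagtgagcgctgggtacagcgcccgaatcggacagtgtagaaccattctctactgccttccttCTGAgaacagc
SNORD83B: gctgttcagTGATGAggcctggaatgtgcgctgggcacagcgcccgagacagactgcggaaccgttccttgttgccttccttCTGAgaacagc

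SNORD83A (95 nt) and SNORD83B (93 nt) are alike, with 76 identical bases in 97 alignment columns (78.4%). They share a run of 21 nt at the 3′ end, tgccttccttCTGAgaacagc, where the capitals mark box D. Both begin with GCTGTTC and end with GAACAGC, which can pair over 7 bases. SNORD43 (64 nt) has a flush terminal pairing of 2 bases and is 47.4% and 50.5% identical to them. TGATGA was found at positions 7 to 12 of SNORD43 and 10 to 15 of SNORD83A and SNORD83B. The last CTGA lies at 57 to 60, 85 to 88 and 83 to 86. SNORD43 has 1 more CTGA, at position 43, and the others have none. The letters were searched on the strand of the snoRNA. CTGA and TGATGA can overlap when written CTGATGA, which none of the 3 sequences holds. Of 115 box C/D sequences, 56.5% hold TGATGA in their first 20 bases and 98.3% hold CTGA in their last 20.

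Positions in the files ended at 62, 95 and 93 for the 3 snoRNAs, the lengths that RefSeq gives (GRCh38.p14). For SNORD43 GENCODE adds 2 bases at the 3′ end, so reads could be placed only up to position 62 of 64. No read of SNORD83A or SNORD83B lay wholly in a stretch that the other also holds, by reference sequence. No read of the 3 snoRNAs lay on the opposite strand.

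SNORD83B gave the most reads of the 3 snoRNAs in every library, followed by SNORD43 and SNORD83A. SNORD83B had 209, 125 and 320 counts in libraries 1, 2 and 3, which is 1.05% (95% exact binomial interval 0.909% to 1.20%), 1.05% (0.871% to 1.24%) and 1.68% (1.50% to 1.87%) of all snoRNA counts. SNORD43 had 149, 111 and 247 counts, or 0.745% (0.631% to 0.875%), 0.928% (0.764% to 1.12%) and 1.29% (1.14% to 1.46%). SNORD83A had 126, 63 and 190 counts, or 0.630% (0.525% to 0.750%), 0.527% (0.405% to 0.674%) and 0.995% (0.859% to 1.15%). Each of the 3 was highest in library 3. The ranges of neighbours in this order overlap between libraries, so the order holds within a library, not across them. The labels name no molecular identifiers, so intervals cover counting error only.

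The means were 1.26% ± 0.36 for SNORD83B, 0.989% ± 0.28 for SNORD43 and 0.717% ± 0.25 for SNORD83A (SD, n = 3), which placed them at ranks 22, 30 and 40 of 147 box C/D snoRNAs. The median over box C/D snoRNAs was 0.332%. The 32 other box C/D snoRNAs in ribosomal protein genes had a median of 0.449%, and 7 of them were above SNORD83B. These 7 ran from SNORD16 of RPL4 with 1.26% ± 0.44, level with SNORD83B, to SNORD100 of RPS12 with 3.14% ± 0.44 (SD, n = 3). The 15 box H/ACA snoRNAs of such genes, guides of pseudouridylation, had a median of 0.0779%. In these bulk samples, fewer cells with an RNA and less of it per cell cannot be told apart.

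**Figure D2:**
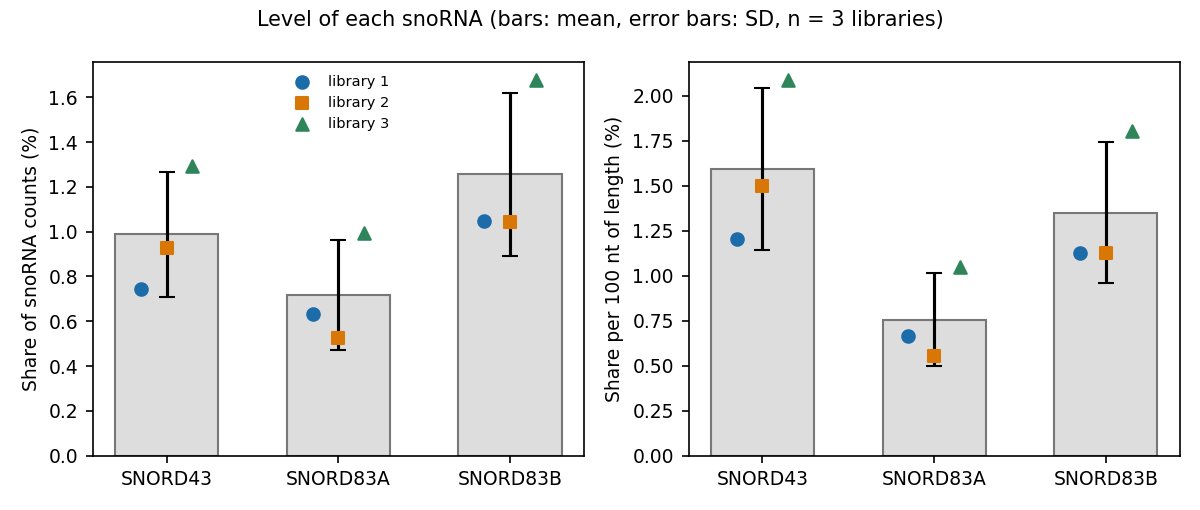
Share of snoRNA counts (left, %) and the same share per 100 nt of snoRNA length (right, %) for each snoRNA, with 1 point per library, bars for the mean and error bars for the SD (n = 3). SNORD83B is highest on the left (1.26%) and SNORD43 on the right (1.60%), SNORD83A is lowest on both, and library 3 is the highest point for each snoRNA.

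Per length the order of the first 2 turned. Per 100 nt of length SNORD43 took 1.60% ± 0.45, SNORD83B 1.35% ± 0.39 and SNORD83A 0.755% ± 0.26 of the counts (SD, n = 3). In the related pair, counts per nucleotide of SNORD83B exceeded those of SNORD83A 1.81-fold (log2 ratios of 0.76, 1.02 and 0.78, on average 0.85 ± 0.14, SD). SNORD83A was below SNORD43 by a log2 ratio of -1.09 ± 0.30 per nucleotide, with -0.86, -1.43 and -0.99 in the 3 libraries. When counts were not divided by length the ratio was smaller, -0.48 ± 0.30 (0.72-fold). SNORD83B was below SNORD43 by -0.24 ± 0.16 per nucleotide, but above it by 0.34 ± 0.16 when counts were not divided by length, so which of these 2 is higher depends on that choice. Over near full-length reads alone, the means of all 3 ratios per nucleotide kept their direction. Flipping the signs of the 3 library values in an exact two-sided permutation test gave p = 0.25 for each level ratio over all reads, and 3 libraries can give no smaller p. For SNORD83B to SNORD43 over near full-length reads the mean was -0.22, and the same permutation test gave p = 0.5. In all, 15 differences between the 3 snoRNAs were tested, and every p of 0.25 became 0.341 by Benjamini-Hochberg adjustment over the 15.

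The ratio of the related pair varied little between libraries. SNORD83B made up 62.4% of the reads of the pair in library 1 (95% exact interval 57.0% to 67.6%), 66.5% in library 2 (59.3% to 73.2%) and 62.7% in library 3 (58.4% to 67.0%), and these intervals overlap. The SD of the log2 ratio over libraries was 0.14 for SNORD83B to SNORD83A, 0.16 for SNORD83B to SNORD43 and 0.30 for SNORD83A to SNORD43. Among box C/D snoRNAs, 108 reached 10 counts in each library, and over their 5778 pairs the median SD was 0.58 (quartiles 0.37 and 0.82). Over the 50 pairs with the same annotated host, which include the 3 pairs of members, it was 0.39 (quartiles 0.28 and 0.55). All 3 values are below these medians, as a description and with no test. The 0.30 of SNORD83A to SNORD43 lies between the same-host quartiles. Counting error also enters this SD, and the members had 63 to 320 counts per library, where the minimum was 10. By contrast, the share of each single member varied 1.60-fold to 1.89-fold between libraries. Of the 108 snoRNAs, 52 (48.1%) had their highest share in library 3, as the 3 members did.

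Likeness to other snoRNAs was measured as the Euclidean distance between log2 shares over the 3 libraries, among the same 108. SNORD79 (0.26), SNORD30 (0.49) and the entry mgh28S_2409 (0.55) were nearest to SNORD43. SNORD11 (0.33), the entry HBII_99B (0.41) and the entry mgh28S_2411 (0.42) were nearest to SNORD83A. SNORD83B was nearest to SNORD30 (0.31), SNORD16 (0.63) and SNORD43 (0.64), the only pair of the 3 members on these lists. With 3 libraries this distance reflects mostly the level.

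Most reads of the 3 snoRNAs covered nearly the whole RNA. Reads were called near full length when they spanned at least 90% of the highest position. SNORD83B had 185 of 209, 107 of 125 and 285 of 320 such reads (87.7% ± 1.9), SNORD43 had 121 of 149, 100 of 111 and 217 of 247 (86.4% ± 4.6), and SNORD83A had 98 of 126, 48 of 63 and 153 of 190 (78.2% ± 2.2; SD, n = 3 each). Over the 108 box C/D snoRNAs the median of this share was 70.3%, with quartiles of 49.7% and 81.4%. SNORD83B and SNORD43 ranked 9 and 13, above the upper quartile, and SNORD83A ranked 42.

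SNORD83A was below SNORD83B by 9.56 percentage points ± 1.1 (SD), in 3 of 3 libraries (10.7, 9.41 and 8.54), with exact permutation p = 0.25. Against SNORD43 the difference was -8.22 percentage points ± 5.3 for SNORD83A, in 3 of 3 libraries, and 1.34 ± 5.9 for SNORD83B, in 2 of 3, with exact permutation p = 0.25 and 0.75. The limit of 90% bears on this: the smallest span counted for SNORD83A was 86 nt (3 reads), and 25 reads had 85 nt. With a limit of 80% SNORD83A had 87.1% and SNORD83B 89.8%, a difference of 2.78 percentage points, and SNORD83A differed from SNORD43 by -1.69. With a limit of 95% the shares of SNORD83A and SNORD83B were 2.73% and 8.07%, because their commonest reads span 94.7% and 94.6% of the reference, while SNORD43 had 82.6%. With the limit of 90% and the GENCODE length of 64 nt, SNORD43 had 83.3%. The differences from it were then 4.46 percentage points for SNORD83B and -5.10 for SNORD83A (exact permutation p = 0.25 each).

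**Figure D3:**
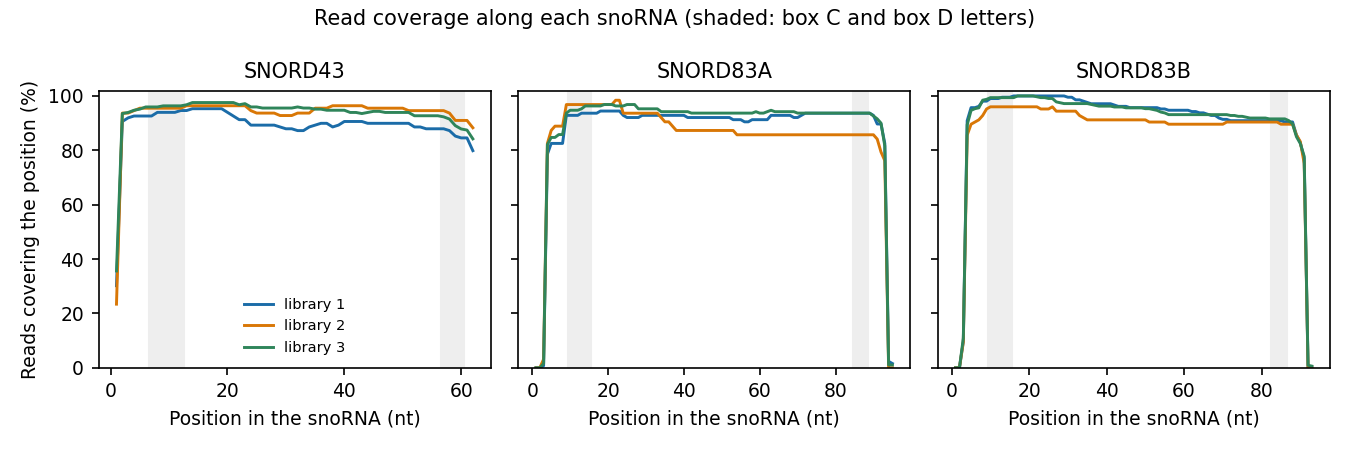
Percentage of the reads of each snoRNA that cover each position (horizontal axis, nt from the first base of the reference), with 1 line per library and grey bands for the letters of box C and box D. Coverage rises at position 1 or 2 in SNORD43 and at position 4 in SNORD83A and SNORD83B, and falls after 93 in SNORD83A and after 91 in SNORD83B, in every library.

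The 5′ ends lay mostly at 1 base in SNORD83A and SNORD83B and were split over 2 neighbouring bases in SNORD43. Of near full-length reads, 93.0% ± 1.2 of SNORD83A (92, 44 and 143 reads) and 82.9% ± 1.2 of SNORD83B (156, 88 and 234 reads) began at position 4. Both thus lack the first 3 bases of the reference in most reads. In SNORD83B another 10.1% ± 0.86 began at position 3 (17, 11 and 31 reads), against 2.38% ± 1.6 in SNORD83A (1, 2 and 3 reads; SD, n = 3). In SNORD43 68.0% ± 7.8 began at position 2 (82, 76 and 131 reads) and 29.8% ± 7.9 at position 1 (36, 22 and 82 reads). The share at position 1 was lowest in library 2 and highest in library 3. Another 33 box C/D snoRNAs had 10 or more near full-length reads per library and a reference of matching length. In these the commonest start held a median of 93.5% of such reads (quartiles 87.6% and 95.7%, lowest 69.0%), so the 68.0% of SNORD43 was just below the lowest of these 33. The 93.0% of SNORD83A was close to the median, and the 82.9% of SNORD83B was below the lower quartile.

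The mean first position was 4.04 ± 0.016 in SNORD83A, 4.04 ± 0.010 in SNORD83B and 1.74 ± 0.083 in SNORD43 (SD, n = 3). The related pair differed by 0.0062 ± 0.026 nt, with 1 of 3 libraries in that direction and exact permutation p = 1. SNORD83A and SNORD83B differed from SNORD43 by 2.29 ± 0.099 and 2.30 ± 0.074 nt in 3 of 3 libraries each, with exact permutation p = 0.25. Much of that comes from where each reference starts. Counted from box C, the commonest start lay 5 bases before TGATGA in SNORD43 and 6 bases before it in SNORD83A and SNORD83B. Of 20 other box C/D snoRNAs with TGATGA, 8 began 5 bases and 9 began 6 bases before it.

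At the 3′ end, most near full-length reads of each snoRNA shared 1 position. Of near full-length reads, 92.0% ± 0.91 of SNORD43 ended at position 62 (111, 93 and 198 reads), 87.8% ± 2.5 of SNORD83A at position 93 (87, 43 and 130 reads) and 85.7% ± 0.40 of SNORD83B at position 91 (159, 92 and 243 reads; SD, n = 3 each). The median over the 33 other snoRNAs was 85.3% at the commonest end. In SNORD83A 6.13% ± 3.6 and in SNORD83B 6.72% ± 1.6 ended 1 base earlier, and 4.80% ± 0.92 of SNORD83B ended 3 bases earlier, at position 88. Near full-length reads to the last base of the reference were few, 3 in SNORD83A and 2 in SNORD83B. In both, then, most reads lack 3 bases at the 5′ end and 2 at the 3′ end, and 4 of the 7 bases of the 5′ arm GCTGTTC remain.

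The mean number of bases missing at the 3′ end was 2.17 ± 0.058 in SNORD83A, 2.26 ± 0.021 in SNORD83B and 0.20 ± 0.022 in SNORD43 (SD, n = 3). SNORD83A and SNORD83B exceeded SNORD43 by 1.97 ± 0.044 and 2.06 ± 0.029 nt in 3 of 3 libraries each, with exact permutation p = 0.25. This rests on the reference: with the GENCODE length of 64 nt SNORD43 lacked 2.07 bases, and the differences were 0.097 and 0.19 nt. From box D the commonest end lay 2 bases after CTGA in SNORD43 and 5 bases after it in SNORD83A and SNORD83B. Of 33 other box C/D snoRNAs, 11 ended 2 bases, 12 ended 4 bases and 8 ended 5 bases after it. Whether SNORD43 reads go on past position 62 could not be seen.

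**Figure D4:**
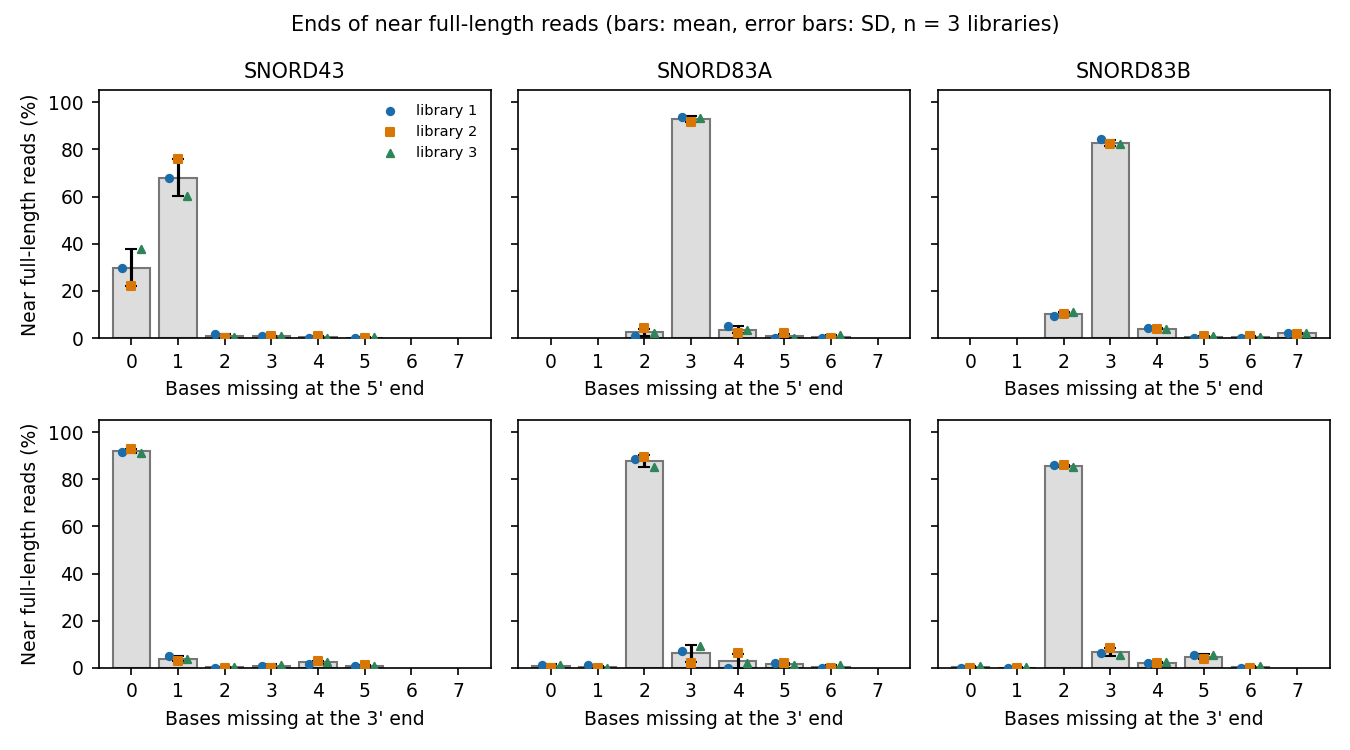
Share of near full-length reads (%) by the number of bases missing at the 5′ end (top) and 3′ end (bottom) of the reference, for each snoRNA, with points for the libraries, bars for the mean and error bars for the SD (n = 3). SNORD43 is split between 1 and 0 missing 5′ bases (68.0% and 29.8%), and SNORD83A and SNORD83B peak at 3 missing 5′ and 2 missing 3′ bases.

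Read by read, the commonest form of SNORD83A ran from 4 to 93 with 82, 39 and 123 reads (63.9% ± 1.7) and that of SNORD83B from 4 to 91 with 138, 77 and 203 reads (63.7% ± 2.2; SD, n = 3). The shares of the commonest form in the related snoRNAs thus differed by less than their SD. SNORD43 had 74, 70 and 120 reads from 2 to 62 (53.8% ± 8.1) and 35, 22 and 75 from 1 to 62 (24.6% ± 5.4; SD, n = 3). SNORD83A had a form from 9 to 93 as its next commonest, with 10, 3 and 12 reads (6.34% ± 1.6), which starts 1 base before TGATGA. SNORD83B had 2, 0 and 1 reads that start 10 bases in and reach the 3′ end, and 0, 1 and 1 that start 9 bases in, but 4, 2 and 6 from 8 to 91 (1.80% ± 0.17; SD, n = 3). The next commonest form of SNORD83B, from 3 to 91, had 14, 9 and 30 reads.

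Some reads had a length other than their span, which is how an insertion, a deletion or unaligned bases would show. Reads longer than their span made up 17.9% ± 5.8 of SNORD43, 12.6% ± 5.8 of SNORD83A and 17.2% ± 3.8 of SNORD83B, against 15.3% ± 3.3 in the other box C/D snoRNAs together. Reads shorter than their span made up 1.45% ± 0.31, 2.29% ± 2.2 and 2.64% ± 1.1, against 5.93% ± 1.3 (SD, n = 3). Among near full-length reads, 51 of SNORD43, 20 of SNORD83A and 57 of SNORD83B were longer by 1 nt, and 354, 256 and 472 had no difference. The files hold no read sequences, so where these bases lie was not tested.

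Short reads, those of up to 40 nt, were few: 21, 8 and 16 of SNORD43 (9.26% ± 4.2), 12, 8 and 12 of SNORD83A (9.51% ± 3.2) and 8, 12 and 15 of SNORD83B (6.04% ± 3.1; SD, n = 3). The median over the 108 box C/D snoRNAs was 15.4%, with a lower quartile of 9.30%. SNORD83B differed from SNORD83A by -3.47 percentage points ± 2.1 and was lower in 3 of 3 libraries (exact permutation p = 0.25). The differences of SNORD83B and SNORD83A from SNORD43 were -3.22 ± 6.4 and 0.25 ± 5.0 percentage points, with exact permutation p = 0.75 and 1. Reads of 20 to 24 nt, the size of miRNAs, numbered 18, 11 and 12 over the libraries for SNORD43, SNORD83A and SNORD83B, or 3.72%, 3.08% and 2.23% of reads on average.

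In each of the 3 snoRNAs more short reads lay at the 5′ end than at the 3′ end when libraries were pooled. A short read was placed at an end when it came within 2 nt of the commonest end of near full-length reads. In SNORD83B 25 of 35 short reads lay at the 5′ end and 3 at the 3′ end, all 3 of them in library 2. In SNORD43 28 of 45 lay at the 5′ end (13, 4 and 11 in libraries 1, 2 and 3) and 15 at the 3′ end (7, 4 and 4). In SNORD83A 17 of 32 lay at the 5′ end (4, 6 and 7) and 11 at the 3′ end (6, 1 and 4), so library 1 had more at the 3′ end. The 95% exact intervals of the 5′ share over pooled reads, 53.7% to 85.4%, 46.5% to 76.2% and 34.7% to 70.9%, overlap. They cover counting error only.

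The commonest short reads are shown because they hold box C (TGATGA in capitals). Those of SNORD83A and SNORD83B begin at position 4, as most near full-length reads do, and that of SNORD43 begins at position 1, the less common of its near full-length starts. The sequences are those of the reference at the positions of the reads.
SNORD43, 1 to 23: cacagaTGATGAacttattgacg
SNORD83A, 4 to 23: gttcgtTGATGAggctcaga
SNORD83B, 4 to 26: gttcagTGATGAggcctggaatg
They had 2, 2 and 1 reads, 2, 2 and 0 reads, and 0, 2 and 4 reads in libraries 1, 2 and 3. Differences between the snoRNAs in these few reads were not tested. The commonest 3′ read of SNORD43 ran from 35 to 62 with 1, 2 and 0 reads.

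**Figure D5:**
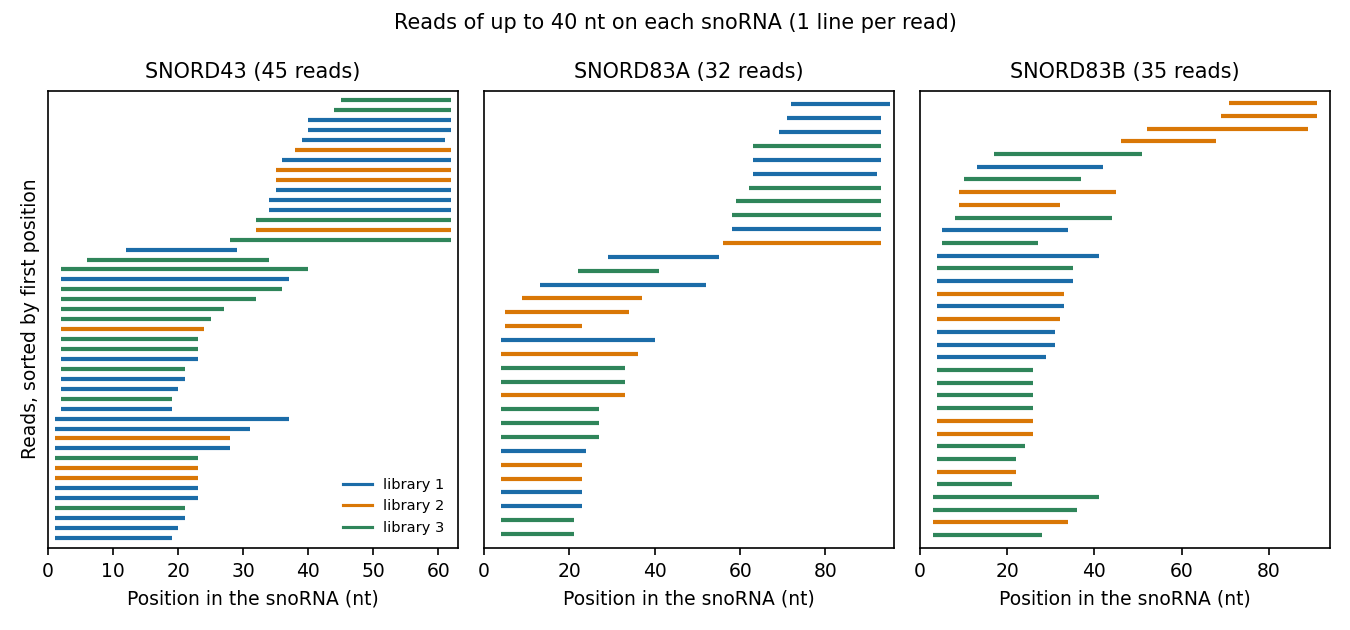
Reads of up to 40 nt on each snoRNA, 1 line per read from its first to its last position (horizontal axis, nt) and coloured by library, stacked by first position. Lines start most often at position 1 or 2 of SNORD43 and at position 4 of the other snoRNAs. A smaller group ends at the 3′ end, with 15 reads in SNORD43, 11 in SNORD83A and 3 in SNORD83B.

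Where reads lie was tested with edgeR by setting the reads centred past the middle of a snoRNA against those centred before it. Reads centred exactly on the middle counted on neither side. This left 363 of 507 reads of SNORD43, 352 of 379 of SNORD83A and 573 of 654 of SNORD83B. The test could be done for 108 snoRNAs, each with 10 or more reads off the middle per library. These are of any class, box H/ACA included, and are not the set of 108 box C/D snoRNAs used above. SNORD83A had 10, 13 and 18 reads on the 5′ side against 109, 47 and 155 on the 3′ side. SNORD83B had 35, 20 and 54 against 150, 89 and 225, and SNORD43 had 23, 10 and 32 against 87, 77 and 134. The 3′ side held more reads in 3 of 3 libraries for each. As log2 of 3′ over 5′, edgeR gave 2.81 ± 0.36 for SNORD83A, 2.10 ± 0.21 for SNORD83B and 2.26 ± 0.28 for SNORD43 (SE, n = 3), with edgeR adjusted p of 0.00107, 0.000609 and 0.000927. By this rule 3 of 3 members were called toward 3′, as 26.9% of the 108 snoRNAs were (39.8% were called toward 5′). For the members the calls turn on near full-length reads centred 0.5 nt past the middle. They do not show an excess of 3′ fragments. The split of calls moves with the scaling: 29 snoRNAs were called toward 3′ and 43 toward 5′, against 45 and 31 with a library size for each side, 38 and 39 with TMM factors and 36 and 29 in DESeq2. The median log2 ratio over all 108 went from -0.75 to 0.28 with a library size for each side, and the ratios of SNORD83A, SNORD83B and SNORD43 became 3.83, 3.12 and 3.28.

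These calls rest on the commonest read of each snoRNA, which is centred 0.5 nt past the middle of the reference and made up 78.5%, 90.1% and 88.6% of the 3′ reads of SNORD83A, SNORD83B and SNORD43. For SNORD43 the call also rests on the reference length, taken as 62 nt. Against the GENCODE length of 64 nt, its reads from 2 to 62 (264) and from 1 to 62 (132) would be centred before the middle. The position test was not run with that length. When reads centred within 1 nt of the middle were left out, SNORD83A had 8, 9 and 14 reads on the 5′ side against 20, 7 and 29 on the 3′ side, SNORD83B 20, 12 and 31 against 7, 10 and 14, and SNORD43 21, 10 and 28 against 11, 7 and 12. The edgeR log2 ratios became 0.74 ± 0.48, -0.98 ± 0.45 and -0.91 ± 0.42 (SE, n = 3), with adjusted p of 0.229, 0.0945 and 0.0972 and unadjusted p of 0.157, 0.0567 and 0.0594. No member then had a call in edgeR, the only tool run on these reads, while 17.8% of 90 snoRNAs were called toward 3′ and 34.4% toward 5′. With reads spanning at most 50% of the snoRNA and no minimum beyond 1 count, SNORD83B had more 5′ reads (9, 9 and 16 against 0, 4 and 0) with a log2 ratio of -3.19 ± 1.0 (SE) and an edgeR adjusted p of 0.0202, a call toward 5′ that 10.7% of 178 snoRNAs received (7.3% were called toward 3′). SNORD43 and SNORD83A had log2 ratios of -0.84 ± 0.87 and -1.02 ± 0.93 there, with edgeR adjusted p of 0.577 and 0.534. Whether SNORD83B differs from the others in this was not tested.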

How the data were processed

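For each library the authors deposited counts of distinct records, where a record joins an entry's name with the length of the read and with where it starts and ends. The submitters' processing notes name GRCh38.p10. For trimming, alignment and filters, tools and settings were not given in the sources used here. A deposited table of miRNA and snoRNA counts was not used. Library totals were 19989, 11958 and 19092 counts, so 3 counts are 0.0150%, 0.0251% and 0.0157%. Pairs of libraries differed by more than sampling noise (chi-square per degree of freedom 13.3, 10.4 and 12.4).

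Entries were named through RefSeq symbols and synonyms (246 of 260 matched), and 222 had 1 GENCODE 29 gene, from which hosts and coordinates came. The length of a snoRNA was the highest position in any library. Position counts were tested with edgeR 4.0.16 (quasi-likelihood test with a term for the library, the sum of tested reads of the library as size on either side, adjusted p under 0.05). On counts simulated for the 108 snoRNAs with a dispersion of 0.1 it recovered 90.5% of 4-fold and 100% of 16-fold differences. False calls made up 3.38% and 2.68% of the calls. The simulation drew a count for each side and no read positions, so it cannot bear on calls set by reads centred near the middle. Other differences used two-sided exact sign-flip permutation tests over 3 libraries. The 3 genes were named with the 3 nearest box C/D snoRNAs of each and their commonest near full-length and short reads, and the other snoRNAs and forms in the text were chosen after their values were seen. Members and lists were chosen with earlier results of these data known. R 4.3.3 with DESeq2 1.42.0 (alternative) and Python 3.11.15 with SciPy 1.17.1, NumPy 2.4.6, pandas 2.3.3, Biopython 1.88 and matplotlib 3.10.9 were used.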

Additional observations from a re-analysis of the deposited data

How the results depend on the processing

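The level, near full-length share, short read share and end positions of single members moved by less than 1 SD in 28 of 45 cases under settings other than leaving out a library, and by more in 17. Of the differences between members, SNORD83B to SNORD43 turned to a log2 ratio of 0.34 without division by length. The 5′ end difference of SNORD83B and SNORD83A turned to -0.048 without gapped alignments and to -0.45 with a limit of 80%, a limit that brings in the SNORD83A reads from 9 to 93. It ranged from -0.0083 to 0.016 with a library left out. The near full-length difference of SNORD83B and SNORD43 turned to -74.6 percentage points with a limit of 95% and ranged from -1.64 to 4.26 with a library left out. Their short read difference ranged from -6.03 to 0.30, turning without library 1. That of SNORD83A and SNORD43 was -0.098 without gapped alignments, -0.92 for up to 30 nt and -0.64 for 20 to 24 nt, and ranged from -2.37 to 2.66, turning without library 2.

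In the edgeR position test the members kept their calls under library sizes per part, TMM factors, DESeq2, no count minimum, without gapped alignments and without each library. None of these settings leaves out reads for being centred near the middle. Keeping the calls under them therefore cannot show whether the calls hold without such reads. The GENCODE length of 64 nt for SNORD43 was not among these settings. With it the commonest read of SNORD43 would be centred before the middle. The log2 ratios of SNORD43, SNORD83A and SNORD83B, 2.26, 2.81 and 2.10, became 3.28, 3.83 and 3.12 with library sizes per part, 2.75, 3.30 and 2.59 with TMM factors and 3.04, 3.58 and 2.87 in DESeq2. With a library left out they ranged from 1.99 to 2.46, 2.50 to 3.24 and 2.07 to 2.12. Without reads centred within 1 nt of the middle the ratios were -0.91, 0.74 and -0.98, and with reads spanning at most 50% and no minimum -0.84, -1.02 and -3.19, both chosen after seeing the data. With the limit on span and the minimum of 10, no member could be tested. Calls toward 3′ numbered 29, and 45 with library sizes per part, 9 with the limit on span, 13 with that limit and no minimum, and 16 without centred reads. Calls toward 5′ numbered 43, 31 with library sizes per part, and 12 and 19 with the limit on span. SNORD83A had 63 counts in library 2, and members had 8 to 21 short reads per library, which limits the precision of their shares. The annotated length for 3′ ends and for near full-length differences between members was also chosen after seeing the data.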
